A study of Triticum monococcum with 54 samples.

Results

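Sulfur (S) lack under high nitrogen (N) was examined in einkorn grain at 400 °Cd, that is, at 400 degree days of accumulated temperature after flowering. Einkorn, Triticum monococcum, is a diploid wheat. The 6 libraries of 54 in the series were chosen by their labels: 3 of N+S- grain, from plants given 6 mM N and no S, and 3 of N+S+ grain, from plants given 6 mM N and 2 mM S. Both groups came from 1 accession grown in a greenhouse in perlite and sand, received only demineralized water until anthesis, and took up their nutrient solutions from 200 °Cd on. Polyadenylated RNA of whole grain, which mixes endosperm, embryo and outer layers, was sequenced with strand-specific libraries. The labels call the 3 samples of a group biological replicates, and all 6 libraries were run on lane 4, so the labelled difference between the groups is S supply alone. The comparison covers the 18308 genes present in both groups' tables as used here.

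Plants take up S as sulfate and reduce it to build cysteine, from which methionine and glutathione are made. Wheat grain lays down most of its N in storage proteins of the endosperm, and these families differ in how much cysteine and methionine they hold. Grain filled with ample N but little S is known to store less of the S-rich families and relatively more of the S-poor ones. The files give gene identifiers without names or descriptions, so none of the genes below could be assigned to these families or to sulfate assimilation, and the identity of the tissue was not checked against marker genes.

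On the 18308 genes compared, the N+S- libraries held 839848 to 925632 counts and the N+S+ libraries 1227291 to 1288265. Shares of counts and ranks of abundance below are over these genes only. The N+S+ data list 32047 genes, and those outside the comparison were not ranked. Of the 18308 genes, 7233 had no count in any of the 6 libraries, 5410 had counts too low to test and 5665 were tested. Levels are given in CPM, which scales each library's counts by its total and by its TMM scaling factor, described below. A level in CPM is thus not a share of the counts. Correlations of log2 levels across genes, which are not independent replicates, were 0.915 to 0.939 within groups and 0.892 to 0.924 between them. With all libraries thinned to the smallest, 8777 to 9117 genes had a count in N+S- grain and 8282 to 8768 in N+S+ grain.

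Grain without S held far less of a few of its most abundant transcripts, while most genes differed little. By the edgeR quasi-likelihood test, 105 of the 5665 genes passed at a Benjamini-Hochberg adjusted p under 0.05, which is 1.85% of those tested. Of these, 41 were higher in N+S- grain (0.724% of all genes tested) and 64 lower (1.13%). The 64 lower genes took 6.85%, 7.59% and 5.54% of the counts in the N+S- libraries, against 32.4%, 24.5% and 30.5% in the N+S+ libraries. The 41 higher genes took 1.56%, 1.54% and 1.99% in N+S- libraries, against 0.684%, 0.794% and 0.674% in N+S+ libraries. These shares describe genes selected on the same libraries and carry no test. In whole grain, fewer cells of a type and less RNA per cell cannot be told apart.

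The falls were also the larger changes. Of the 64 lower genes, 46 changed by at least 2-fold and 22 by at least 4-fold, with a median log2 fold change of -1.34. Of the 41 higher genes, 19 changed by at least 2-fold and 6 by at least 4-fold, with a median log2 fold change of 0.92. The median over all genes tested was -0.01. In 104 of the 105 genes the 3 N+S- libraries all lay on one side of the 3 N+S+ libraries, as they did in 909 of all 5665. Single libraries carried part of this count: without N+S+ replicate 3, 54 genes passed, 18 higher and 36 lower, and 53 of them were among the 105.

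The balance of rises and falls depends on scaling. The TMM scaling factors were 1.07 to 1.15 in N+S- grain and 0.835 to 0.956 in N+S+ grain. Scaled by library size alone, a setting chosen after the data had been seen, the median gene moved up by 0.32 on the log2 scale. Then 391 genes passed, of which 350 were higher and 41 lower, so that 89.5% of calls were rises, against 39.0% with TMM. All fold changes given here are TMM-scaled and thus relative to the typical gene.

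**Figure D1:**
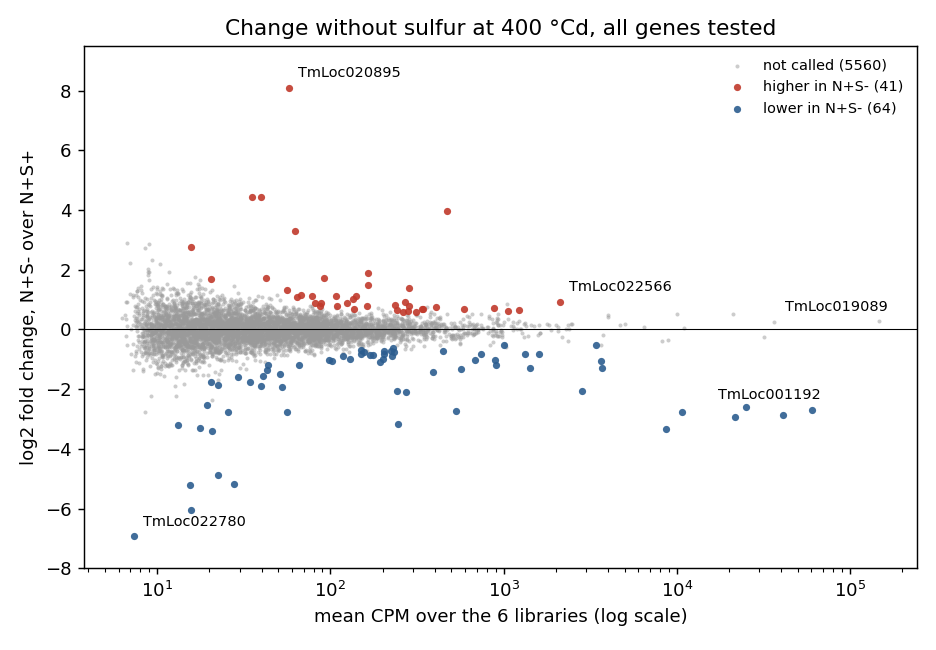
Each point is a gene, plotted by its mean level over the 6 libraries (x axis, CPM, log scale) and its log2 fold change in N+S- over N+S+ grain (y axis). Called genes are coloured, 41 higher and 64 lower, and at the highest levels a set of 6 genes lies at log2 fold changes of -3.33 to -2.61 while the others lie near 0.

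Calls were concentrated among abundant genes. In genes with a mean over 1000 CPM, 3 were higher and 14 lower of 72 tested (23.6% called). Between 100 and 1000 CPM, 23 were higher and 27 lower of 1159 (4.31%), and between 10 and 100 CPM 15 and 22 of 4125 (0.897%). Precision moved with level: the median standard error of a log2 fold change was 0.14 over 1000 CPM, 0.17 between 100 and 1000 CPM and 0.37 between 10 and 100 CPM. Its part in this gradient was not tested. In simulated counts for this comparison, 43% of genes changed by 1 and 81% of genes changed by 2 on the log2 scale were called. The changed genes were drawn over all levels, as many rises as falls, and the rates were not split by level. A gene that was not called may thus still have changed.

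The lower genes had a median length of 1010.5 bases (quartiles 394 and 2451), the higher genes 1601 bases (quartiles 1041 and 2140) and all genes tested 2094 bases (quartiles 1063 and 3402). The lengths thus overlapped widely, and their difference was not tested. Genes over 1000 CPM, among which calls were most frequent, had a median length of 1410.5 bases. The part of length and level in each other was not tested.

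TmLoc001192 lost the largest share of counts. This gene, 552 bases long, was the second most abundant of the 18308 genes compared over the 6 libraries. It took 1.95%, 1.98% and 1.40% of the counts in N+S- libraries, against 10.4%, 7.71% and 9.31% in N+S+ libraries. The groups did not overlap. Its normalized level was 16191 ± 3177 CPM in N+S- grain and 104060 ± 21833 CPM in N+S+ grain (SD, n = 3 each). That is 6.43-fold lower (log2 fold change -2.68 ± 0.18 SE, edgeR adjusted p = 1.04e-10). Per kilobase of length it stood at 29331 CPM on average in N+S- grain and 188514 CPM in N+S+ grain.

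TmLoc022780 was lower by the largest fitted change, at a low level. It had no count in any of the 3 N+S- libraries, against 20, 12 and 16 counts in the N+S+ libraries. With 3 counts taken as the floor for the N+S- group as a whole, it was at least 13.8-fold lower there (edgeR adjusted p = 0.00222). It was the only tested gene for which 1 of the groups had no count. Without N+S+ replicate 1 or 3 it was too low to be tested. A count of 0 over 3 libraries still allows expression below that floor.

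TmLoc020895 showed the reverse pattern. It had 107, 95 and 124 counts in the N+S- libraries, against 1, 0 and 0 in the N+S+ libraries. These correspond to 114.5 ± 21.6 CPM in N+S- grain and 0.33 ± 0.57 CPM in N+S+ grain (SD, n = 3 each), with the gene close to silent in all 3 N+S+ libraries. The ratio of the summed counts, corrected for library size and TMM scaling factor, was 377. Its exact 95% binomial interval of 67.2 to 14928 covers counting error only. The fitted log2 fold change was 8.08 ± 0.52 (edgeR adjusted p = 8.03e-11) and depends on the prior count because the N+S+ group holds a single count.

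TmLoc022566 gained the largest share of counts among the higher genes, by a small factor. Its level was 2617, 2352 and 3404 CPM in the N+S- libraries, against 1459, 1709 and 1246 CPM in the N+S+ libraries, with a clear gap between the groups. The rise was 1.90-fold, or 0.92 ± 0.15 on the log2 scale (edgeR adjusted p = 0.000612). With the spread estimated over all 24 libraries of N+S- and N+S+ grain the call was lost, at an unchanged size (log2 fold change 0.92 ± 0.26, edgeR adjusted p = 0.0623).

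**Figure D2:**
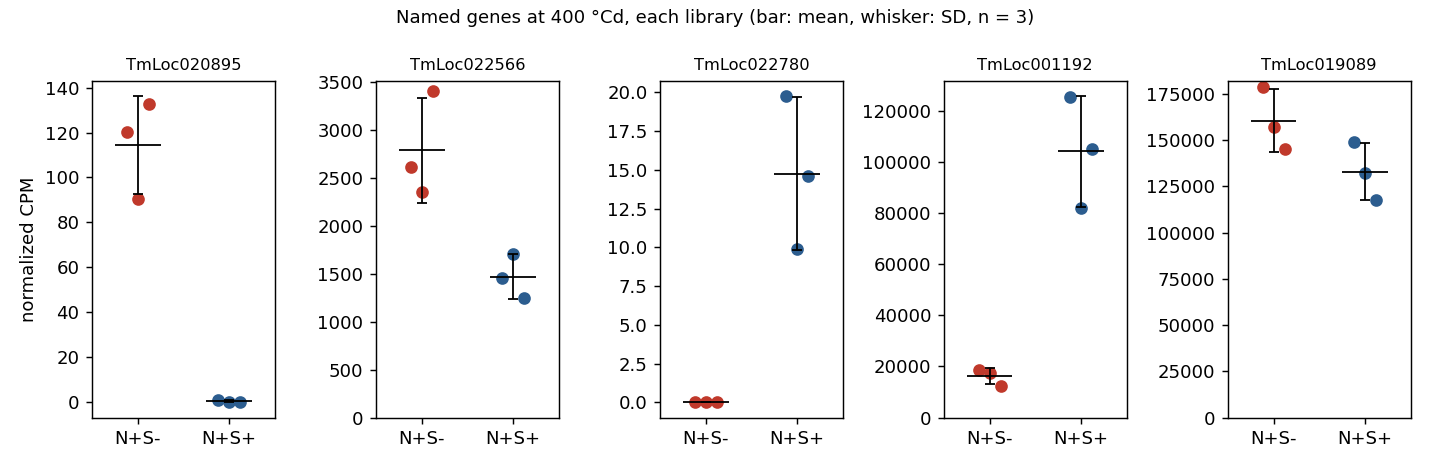
Normalized level (y axis, CPM, one scale per gene) of the 5 genes described singly, in the 3 N+S- and the 3 N+S+ libraries at 400 °Cd, with the mean as a bar and the SD as a whisker. The groups are separate for the first 4 genes, with TmLoc022780 at 0 in all N+S- libraries and TmLoc020895 at 0.33 CPM on average in N+S+ grain, and overlap for TmLoc019089.

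Among the most abundant transcripts, some fell steeply without S and most did not pass the test. The 20 most abundant of the 18308 genes compared were ranked on the mean share over all 6 libraries without regard to group. Of these, 6 were lower in N+S- grain and 0 higher by edgeR. Of all genes tested 1.85% were called, and of the 72 with a mean over 1000 CPM 23.6%. Over all genes tested, 596 had an unadjusted p under 0.05. The fall was of similar size in all 6, with log2 fold changes of -3.33 to -2.61. Together the 6 took 4.85%, 5.35% and 3.85% of the counts in the N+S- libraries, against 29.2%, 20.9% and 26.9% in the N+S+ libraries.

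The other 14 showed fitted log2 fold changes of -0.38 to 0.51, 10 of them above 0, and none passed the test (lowest edgeR adjusted p = 0.0602). Their summed share was 36.6%, 34.7% and 34.7% in N+S- libraries, against 24.9%, 26.8% and 23.3% in N+S+ libraries. Shares sum to a whole, so this gain can follow from the fall of the 6. The 20 genes together took 40.0% ± 1.43 in N+S- grain and 50.7% ± 3.22 in N+S+ grain (SD, n = 3 each). The groups did not overlap, and the difference was -10.6 percentage points. An exact permutation test, two-sided over 20 arrangements, gave p = 0.1, the smallest p that 3 against 3 libraries allow. The median log2 fold change of the 20 was -0.07.

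TmLoc019089, the most abundant of the 18308 genes compared, belongs to the set that did not pass. It took 18.9%, 17.8% and 16.1% of the counts in N+S- libraries, against 12.3%, 12.5% and 10.4% in N+S+ libraries, with no overlap in these shares. Its normalized levels of 160416 ± 17008 CPM in N+S- grain and 132890 ± 15544 CPM in N+S+ grain (SD, n = 3 each) overlapped between groups. The log2 fold change was 0.27 ± 0.14 (edgeR adjusted p = 0.526). Scaled by library size alone it was 0.59 ± 0.13 and passed (edgeR adjusted p = 0.00573), so its direction was the same and its call rests on the scaling.

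**Figure D3:**
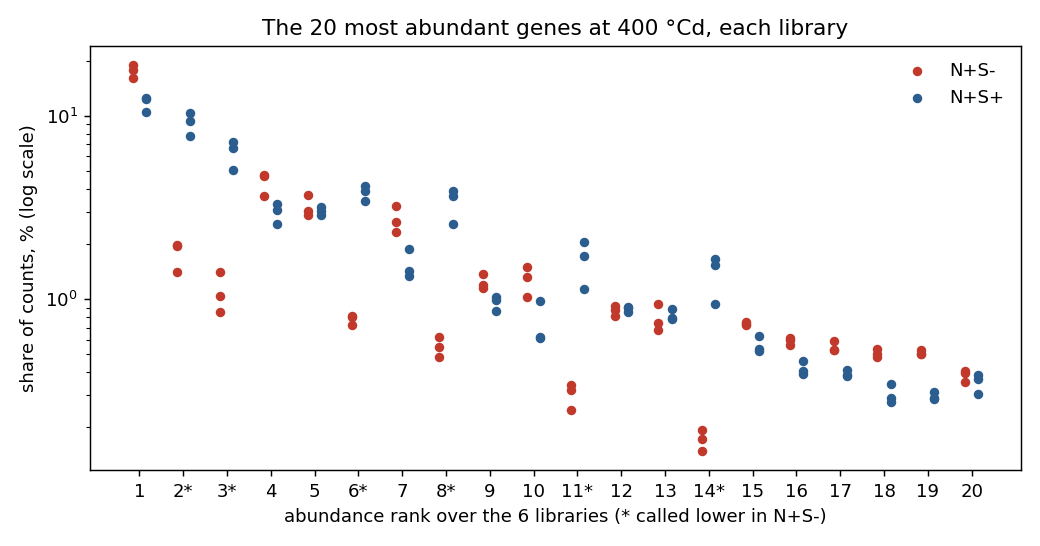
Share of the counts on the 18308 genes (y axis, %, log scale) taken by each of the 20 most abundant, in order of rank (x axis). Each point is a library, N+S- left of N+S+ at each rank. The 6 genes marked with an asterisk lie well below their N+S+ shares in all 3 N+S- libraries, and 12 of the remaining 14 have a higher mean share in N+S- grain.

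The stages 300, 500 and 600 °Cd compare the same pair of solutions in other grain and share no library with 400 °Cd, so they show how far the changes recur. At 500 °Cd the N+S- libraries were on lane 4 and the N+S+ libraries on lane 5, so S supply and lane cannot be told apart there. Of the genes called at 400 °Cd and tested at the other stage, 85 of 97 had the same sign at 300 °Cd, 90 of 103 at 500 °Cd and 83 of 102 at 600 °Cd. Over all genes tested in both, the same sign was found in 51.1% at 300 °Cd, 55.4% at 500 °Cd and 55.9% at 600 °Cd. The same genes thus moved alike in most cases. Of the 105, 66 kept their sign at all 4 stages, where a gene not tested at every stage cannot count. The matching share over all genes tested is not given.

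Calls recurred too. Of the genes called at 400 °Cd, 33 were called in the same direction at 300 °Cd, where 1.44% of all genes tested were called (0.933% higher and 0.51% lower). There were 51 at 500 °Cd, against 1.65% of all genes (0.902% higher and 0.749% lower), and 27 at 600 °Cd, against 0.774% (0.436% higher and 0.339% lower). These are 34.0%, 49.5% and 26.5% of the genes called at 400 °Cd and tested there, and 33.3%, 52.6% and 56.2% of those called at 300, 500 and 600 °Cd. The 99 calls at 300 °Cd varied with single libraries. They were 64 or 161 without N+S- replicate 2 or 3, and 48, 57 or 42 without N+S+ replicate 1, 2 or 3. Rises outnumbered falls there by 64 to 35, but falls outnumbered rises without N+S- replicate 3 (73 higher, 88 lower) or N+S+ replicate 2 (22 higher, 35 lower).

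The genes higher without S at 400 °Cd had a median log2 fold change of 0.28 at 300 °Cd, 0.83 at 500 °Cd and 0.77 at 600 °Cd, against 0.91 to 0.92 at 400 °Cd. The lower genes had -0.38 at 300 °Cd, -0.67 at 500 °Cd and -0.47 at 600 °Cd, against -1.30 to -1.20 at 400 °Cd. The genes were selected at 400 °Cd, which by itself tends to make the values there larger. Its part in these differences was not tested.

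**Figure D4:**
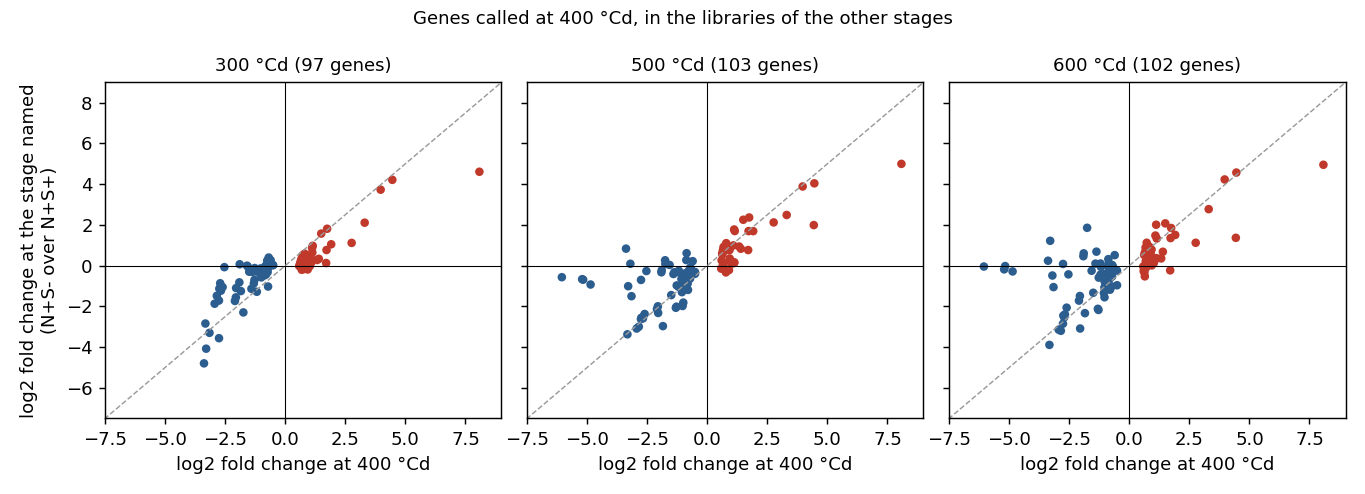
Log2 fold change in N+S- over N+S+ grain at 300, 500 and 600 °Cd (y axes) against that at 400 °Cd (x axes) for the genes called at 400 °Cd, 97, 103 and 102 of which were tested at the stage shown. The dashed line marks equal changes. Most points have the same sign on both axes: 85 at 300, 90 at 500 and 83 at 600 °Cd.

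A set of 22 genes was called in one direction at all 4 stages, 9 higher and 13 lower. The 6 lowered genes of the 20 most abundant were all among these 13. The 13 had a median length of 432 bases and took 4.95% of the counts in N+S- grain and 26.4% in N+S+ grain at 400 °Cd. Their median log2 fold change was -1.25 at 300 °Cd, -2.61 at 400, -2.57 at 500 and -2.40 at 600 °Cd. The 9 higher genes had medians of 1.81, 1.91, 2.36 and 2.07 in the same order of stages, and took 0.333% of the counts in N+S- grain and 0.0862% in N+S+ grain at 400 °Cd. At the other end, 47 genes passed at 400 °Cd and were not called in the same direction at any other stage where they were tested, 16 higher and 31 lower, 20 of them by at least 2-fold. They include TmLoc014750, which was called in the opposite direction at 600 °Cd and is named after its values were seen.

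A call that is not repeated does not show a response particular to it. The difference between the change at 400 °Cd and the mean change at 300, 500 and 600 °Cd was therefore tested over 24 libraries and 7504 genes. By edgeR 1 gene passed (0.0133%), with 718 at an unadjusted p under 0.05. In simulated counts this test called 25% of genes that differed by 1 and 69% of those that differed by 2 on the log2 scale. Of its calls there, 6.93% were false.

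That gene, TmLoc020022, was chosen for mention after its values were seen. Its level at 300 °Cd was 756, 885 and 836 CPM in N+S- libraries, against 862, 739.7 and 799 CPM in N+S+ libraries. At 400 °Cd it was 18.9, 20.8 and 9.67 CPM in N+S- libraries, against 42.3, 63.9 and 81.4 CPM in N+S+ libraries. At 500 °Cd it was 14.7 to 22.9 CPM in N+S- and 19.2 to 22.8 CPM in N+S+ libraries, and at 600 °Cd 9.33 to 12.7 CPM in N+S- and 3.13 to 13.1 CPM in N+S+ libraries. The groups thus stood apart at 400 °Cd and overlapped at the other 3 stages. The log2 fold change at 400 °Cd minus the mean of the others was -2.07 ± 0.33 (edgeR adjusted p = 0.00269), and without N+S- replicate 3 of 400 °Cd 0 genes passed.

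The named genes differed in how they ran through grain filling. On a scale common to 36 libraries of N+S-, N-S- and N+S+ grain, TmLoc020895 averaged 37.3, 114.2, 118.0 and 144 CPM at 300, 400, 500 and 600 °Cd in N+S- grain, against 1.49, 0.33, 3.70 and 4.54 CPM in N+S+ grain. It was thus higher without S throughout (edgeR adjusted p = 1.30e-05 at 300, 2.02e-07 at 500 and 1.08e-06 at 600 °Cd). TmLoc001192 averaged 44889, 16132, 15098 and 17479 CPM in N+S- grain over the 4 stages, against 107069, 104094, 91926 and 92096 CPM in N+S+ grain. Its log2 fold change was -1.24 ± 0.22 at 300 °Cd (edgeR adjusted p = 0.00559), -2.60 ± 0.22 at 500 and -2.40 ± 0.21 at 600 °Cd. Its N+S+ level changed little while its N+S- level dropped between 300 and 400 °Cd, the stages also being on different lanes.

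TmLoc022566 averaged 1750, 2785, 1071 and 493 CPM at the 4 stages in N+S- grain, against 1656, 1474, 635 and 287 CPM in N+S+ grain. Its mean was highest at 400 °Cd in N+S- grain and at 300 °Cd in N+S+ grain, and it did not pass at the other 3 stages (edgeR adjusted p = 0.862 at 300, 0.0730 at 500 and 0.546 at 600 °Cd). TmLoc022780 was too low to test at the other stages, with group means of 0.29 to 2.36 CPM in N+S- grain and 1.56 to 4.60 CPM in N+S+ grain. The test of 400 °Cd against the other stages was not passed by any of these 4 genes (edgeR adjusted p = 0.322 to 0.412 for 3 of them, and 0.756 for TmLoc022566).

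**Figure D5:**
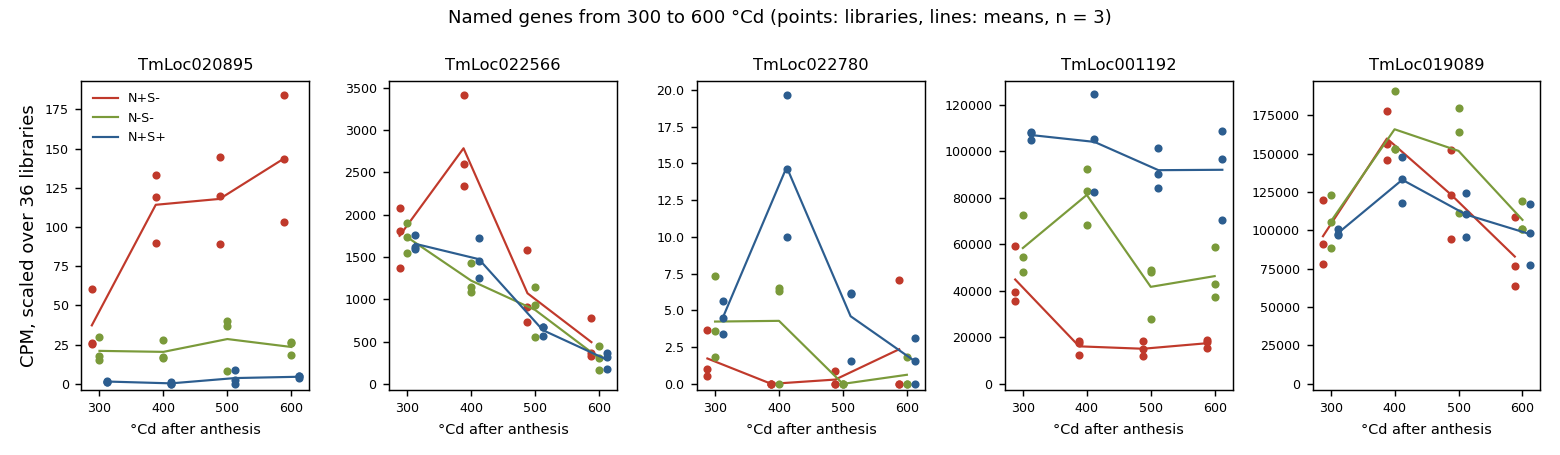
Level (y axis, CPM on the scale of 36 libraries) of the 5 genes described singly at 300, 400, 500 and 600 °Cd (x axis) in N+S-, N-S- and N+S+ grain, with a point per library and lines through group means. TmLoc001192 and TmLoc020895 keep N+S- and N+S+ apart at all 4 stages, whereas TmLoc022566 and TmLoc022780 do so at 400 and 500 °Cd and overlap at 300 and 600 °Cd.

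Grain given neither element, N-S-, offers another level at 400 °Cd, on the same lane. TmLoc020895 stood at 89.9 to 133 CPM in N+S- grain, 16.3 to 27.9 CPM in N-S- grain and 0 to 0.98 CPM in N+S+ grain, with all 3 groups separate. TmLoc022566 stood at 2334 to 3417 CPM in N+S- grain, 1088 to 1425 CPM in N-S- grain and 1249 to 1723 CPM in N+S+ grain. Its N-S- and N+S+ levels overlapped, so that N+S- grain alone stood out. TmLoc022780 had 0 to 6.53 CPM in N-S- grain, from 6, 0 and 5 counts. N-S- grain thus overlapped N+S- grain, which had no count, and lay below N+S+ grain at 9.97 to 19.6 CPM.

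Over the called genes, the N-S- mean lay between the N+S- and N+S+ means in 37 of the 41 higher and 54 of the 64 lower genes. It did so in 34.1% of all genes tested. Choosing genes for a wide gap between a pair of groups by itself makes another group more likely to fall inside it. On the log2(CPM + 1) scale N-S- was closer to N+S- than to N+S+ grain in 25 of the 41 and 35 of the 64, and in 54.5% of all genes tested.

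At low N, few of the genes measured passed. The low-N pair also differs in N, since N-S- plants had none and the solution for N-S+ plants held 0.5 mM N beside 2 mM S. The 4 tables share 8649 genes as used here, and 2294 were tested. By edgeR 4 genes passed (0.174%), 1 higher (0.0436%) and 3 lower (0.131%), with 110 at an unadjusted p under 0.05. Without N-S+ replicate 2 a single lower gene, 1 in all, passed. At high N, 47 genes passed over the same tables. Of the genes called at high N, 42 were tested at low N and 36 had the same sign, against 56.7% of all genes tested in both. The change at high N, on which the genes were selected, was the larger one in all 42. Their median log2 fold change at low N was 0.24 for those higher and -0.19 for those lower at high N.

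The 2 genes called at both N levels, TmLoc001563 and TmLoc001996, belong to the 6 lowered abundant genes. They are named after their values were seen. TmLoc001563 changed by -3.33 ± 0.20 at high N (edgeR adjusted p = 2.59e-11) and by -1.91 ± 0.22 at low N (edgeR adjusted p = 1.44e-05) on the log2 scale. TmLoc001996 changed by -2.95 ± 0.18 at high N (edgeR adjusted p = 2.83e-11) and by -1.23 ± 0.20 at low N (edgeR adjusted p = 0.00177).

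The difference between the changes at high and low N was tested over the 12 libraries of 400 °Cd, all on lane 4, and 2654 genes. By edgeR 10 genes passed (0.377%), 8 with a more negative change at high N (0.301%) and 2 with a more positive one (0.0754%). All 8 were among the genes lower at high N, and 4 of them were among the 20 most abundant. Those 4 are all of the lowered abundant genes that the 4 tables share, and 14 of the 20 are in these tables. Without the filter on low counts 20 genes passed. In simulated counts this test called 21% of genes that differed by 1 and 60% of those that differed by 2 on the log2 scale. Of its calls there, 7.95% were false.

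TmLoc001192 differed most clearly between the N levels. On the scale of the 12 libraries and shared genes it stood at 35626, 33952 and 24945 CPM in N+S- libraries, against 246483, 160044 and 207166 CPM in N+S+ libraries. At low N it stood at 161577, 181604 and 132870 CPM in N-S- libraries, against 201885, 208589 and 212245 CPM in N-S+ libraries. N+S- grain lay far below all other groups, N-S- grain overlapped N+S+ grain and lay below N-S+ grain, and N+S+ and N-S+ grain overlapped. The change at low N was -0.40 ± 0.16 on the log2 scale (edgeR adjusted p = 0.902). The log2 fold change at high N minus that at low N was -2.31 ± 0.23 (edgeR adjusted p = 1.16e-07).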

How the data were processed

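The authors deposited raw counts per gene and library, per the file headers, in a table for each treatment. The tools named in the submitters' processing notes are BWA 0.7.12-r1039, CASAVA 1.8.4 and edgeR. Which reference sequence and counting tool were used is not given in the sources used here. From these tables, 54 columns of normalized values were not used, since each table was scaled on its own. Gene lengths are those deposited in the tables. One incomplete row of the N-S+ table was left out.

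Counts of the 6 libraries over 18308 genes were filtered with filterByExpr and scaled jointly by TMM. They were tested in edgeR 4.0.16 (R 4.3.3) by a quasi-likelihood fit to these libraries alone, adjusted by Benjamini-Hochberg over 5665 genes. Each SE was derived from the log2 fold change and the F statistic of its test (size over root F). Other stages and low N were fitted in the same way, the latter over the 8649 genes of all 4 tables. DESeq2 1.42.0 was an alternative.

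Members, lists and tests were chosen with earlier results of these data known. Genes were named by rule: among called genes without overlap and with a mean of at least 10 counts in the higher group, the largest change in fold and in share in each direction, and the most abundant gene not called. Further genes were named where a count was small. Lists by function could not be used without gene names. In simulated counts for the 5665 genes, 4.62% of calls were false. Replicates with the same number did not deviate together, so samples were not paired. No 2 libraries had identical counts, and the chi-square per degree of freedom between replicates was 3.55 to 7.73.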

Additional observations from a re-analysis of the deposited data

Results flagged for a closer look

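By an edgeR test of the difference, 10 genes changed unequally without S at high and at low N at 400 °Cd, with TmLoc001192 at -2.31 ± 0.23 on the log2 scale (adjusted p = 1.16e-07). The N supply of the pair at low N also differs, so this is not a difference in S response alone.

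Set against the mean over 300, 500 and 600 °Cd, the change at 400 °Cd differed in 1 gene by edgeR, TmLoc020022, at -2.07 ± 0.33 on the log2 scale (adjusted p = 0.00269). Leaving out single libraries gave 0 genes (N+S- replicate 3 of 400 °Cd), 6 (N+S- replicate 2 of 400 °Cd), 4 (N+S- replicate 2 of 600 °Cd) and 3 (N+S- replicate 1 of 300 °Cd or N+S+ replicate 3 of 600 °Cd). It gave 2 genes without N+S+ replicate 2 of 300 °Cd, N+S+ replicate 1 of 400 °Cd, N+S- replicate 1 or N+S+ replicate 2 or 3 of 500 °Cd, and N+S- replicate 3 or N+S+ replicate 2 of 600 °Cd.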

How the results depend on the processing

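The 105 calls at 400 °Cd became 104 to 147 with DESeq2 size factors, TMM without the 20 most abundant genes, DESeq2, no filter, a fit to 24 libraries or thinning. The genes were not all the same. The fit to 24 libraries shared 76 of its 108 calls with the 105, thinning 94 of 104 and DESeq2 101 of 113. The other settings of these kept all 105. Over the genes of all 4 tables the calls became 47 (fewer genes tested, 45 shared). By library size alone they became 391 (81 shared), where the cause was not tested beyond the shift of the median gene. With the replicate number as a block 77 passed, all among the 105. The block gave 47 calls at 500 and 86 at 600 °Cd, and 2 genes for 400 °Cd against the other stages. It moved no other count of calls given here by over 1.5 times and ended no call of the 4 called genes named by rule; single genes were otherwise not followed under it. Same-numbered replicates had correlations of deviations of -0.11 to -0.03, so a shared number is no pairing. Leaving out single libraries gave 54 to 109 calls at 400, 42 to 161 at 300, 65 to 142 at 500 and 32 to 60 at 600 °Cd, and 1 to 5 at low N. For 400 °Cd against the other stages it gave 0 to 6 genes, and for high against low N 9 to 13. Without the filter the latter was 20.

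The share of the 20 most abundant genes differed by -12.1 to -8.91 points with a library left out, and by -10.4 to -9.01 points with 10 or 50 genes. The percent of genes with the same sign ranged with a library of 400 °Cd left out from 82.4 to 94.0 at 300, 89.7 to 95.3 at 500 and 79.7 to 88.4 at 600 °Cd, and from 73.5 to 83.3 at low N. The balance of higher and lower calls did turn: at 400 °Cd by library size alone, and with single libraries left out at the other stages. At 500 °Cd (53 higher, 44 lower) falls were the more numerous without N+S- replicate 2 (69, 73) or 3 (30, 35), without N+S+ replicate 1 (36, 43) or 2 (42, 45), and under the block (20, 27). At 600 °Cd (27 higher, 21 lower) they were so without N+S- replicate 3 (16, 17) or N+S+ replicate 3 (24, 30). No fold change of the 5 genes named by rule, and no difference in share, changed sign. TmLoc022780 had no value with DESeq2, thinning or the genes of all 4 tables, nor without N+S+ replicate 1 or 3. Of 82 values of named genes under alternatives, 80 kept direction and side of the threshold, the exceptions being TmLoc022566 and TmLoc019089 as given above. Depth limits the low genes: where a group had no count, expression below the floor of 3 counts over the group remains possible. Library size alone, and the alternatives for other stages, low N and left-out libraries of the stage comparison, were chosen after seeing the data.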

Other observations

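TmLoc014750, named after its values were seen, was the only gene called at both 400 and 600 °Cd in opposite directions. It had 24.6, 5.68 and 17.2 CPM in N+S- grain at 400 °Cd, against 40.2, 64.8 and 54.0 CPM in N+S+ grain, and was lower there (log2 fold change -1.76 ± 0.39, edgeR adjusted p = 0.0138). At 600 °Cd it had 976, 557 and 945 CPM in N+S- grain, against 362, 222 and 106.3 CPM in N+S+ grain, and was higher (1.85 ± 0.35, edgeR adjusted p = 0.0207). At 300 °Cd its N+S- libraries were without a count and its N+S+ libraries stood at 5.11 to 7.26 CPM. At 500 °Cd the groups overlapped, with 437, 77.3 and 366 CPM in N+S- libraries, against 209, 384 and 152 CPM in N+S+ libraries. Its level was thus highest at 600 °Cd in N+S- grain. The test of 400 °Cd against the mean of the other stages was not passed (difference -0.44 ± 1.47, edgeR adjusted p = 0.972). That mean pools 300, 500 and 600 °Cd, so the test cannot decide whether the changes at 400 and 600 °Cd differ.

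Whether the called genes share a course with age in fully supplied grain was not tested. Only 300 and 500 °Cd were compared, which cannot show a course between or after these stages. Between 300 and 500 °Cd in N+S+ grain, whose libraries are not among the 6, 19 of the 41 higher genes and 33 of the 64 lower genes were at a higher level at 500 °Cd, against 49.2% of all genes tested. The median log2 fold change at 500 over 300 °Cd was -0.06 for the higher and 0.02 for the lower genes, and the stages were on different lanes.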
